A study of Mus musculus with 16 samples.

Results

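The insulin-like growth factor family studied here is the group of 9 genes named Igf1, Igf2, Igf1r, Igf2r, Igfbp2, Igfbp3, Igfbp4, Igfbp5 and Igfbp7, taken by these names from the deposited count matrix, in which 41193 genes had a count. They comprise 2 ligands, 2 receptors and 5 binding proteins, and each was followed across the 17 clusters that the authors defined and across time after injury.

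The study sequenced single cells dissociated from mouse spinal cord around a dorsal column lesion, in 16 mice aged 8 to 10 weeks. Wild-type mice (WT, labelled Ryk+/+,GFAPcreERT2) and conditional knockouts (cKO, labelled Rykfl/fl,GFAPcreERT2) were each sampled uninjured and at 1, 7 and 14 days after injury, with 2 mice per genotype and time. All groups carry the tamoxifen-inducible Cre recombinase driven by the Gfap promoter, which acts mainly in astrocytes, so the groups differ in the floxed Ryk alleles and not in the Cre. The treatment label of the uninjured mice reads Sham, whereas the design text of the series calls them uninjured.

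Insulin-like growth factors are secreted peptides that act on cell growth, survival and metabolism by binding the receptor tyrosine kinase Igf1r. Igf2r, also the cation-independent mannose-6-phosphate receptor, takes Igf2 up for degradation, and the binding proteins hold the ligands in extracellular fluid and set how much of them reaches the receptors. In the nervous system Igf1 is known for support of neuron survival and myelination, and microglia are among its cellular sources.

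Several libraries stood apart before any comparison was made. WT 1 d replicate 2 held 1 cell and was left out, so that 15 mice were used, with 536263 to 9008729 unique molecular identifiers (UMIs, counted RNA molecules) per mouse. In 4 mice, replicate 1 of both genotypes at 1 d and at 7 d, the median cell held 414 to 548 UMIs, against 1040.5 to 3637 in the other 11, and these 4 are called the shallow mice below. Of 17937 cell barcodes, 166 occurred in more than 1 library, in 432 cells. The pair that shared most was WT 7 d replicate 1 and WT 1 d replicate 1, both shallow, with 115 barcodes, 108 of them in the same cluster in both. For 6 mice, the condition within the deposited cell names differed from that of the sample title, and the titles were used. Calls of members are therefore also given without the shallow mice, and with mice grouped by their cell names. Clusters 6 and 10 fitted on their own are the exception, as neither alternative was run for them.

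The knockout itself could not be checked. In Clusters 2, 5 and 7, which the authors call astrocytes, Ryk ran from 54.0 to 157 CPM (counts-per-million, UMIs of a gene over UMIs of all genes; median 108) in 7 WT mice and from 23.002 to 123 (median 87.6) in 8 cKO mice, and the ranges overlapped. The labels do not say which exons were removed, so whether these UMIs fall inside the removed stretch cannot be told, and the values check nothing about the genotype labels.

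Marker genes bore out most of the authors' cluster names that matter for the family. The 10 genes that stood out most in Cluster 1 included the endothelial markers Cldn5 and Ly6c1, those of Cluster 9 the smooth muscle and pericyte markers Acta2, Myh11, Tagln, Vtn and Kcnj8, and those of Cluster 14 the collagen genes Col3a1 and Col1a1, with Igfbp5 and Igfbp6 beside them. Cluster 6 was led by P2ry12 and Tmem119, markers of resting microglia, and Cluster 10 by Apoc4, Lpl, Gpnmb, Cst7 and Spp1, genes known from reactive microglia. Cluster 2 went against its name of astrocytes in its 10 leading genes, which held the neuronal Nefl and no astrocyte marker. Its astrocyte markers still summed to 7838 CPM, beside 2467 in other cells, and its neuron markers to 2115, beside 525. Its oligodendrocyte markers summed to 20945, beside 9102. The leading genes of Cluster 7 held no listed astrocyte marker either, but all 7 were over 2-fold higher there, against 3 of 7 in Cluster 2. In Cluster 5, 6 of 7 were. Cluster 5 also held neuron markers at 1785, beside 491 in other cells, and oligodendrocyte markers at 13318, beside 9151. Cluster 2 is therefore called by its number, and Clusters 5 and 7 were also tested on their own. Cluster 13, which the deposited cell table labels Unk, was led by the ependymal markers Tmem212, Ccdc153 and Rsph1.

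The highest levels of the 9 members lay in 5 clusters, namely fibroblasts, pericytes, endothelial cells, astrocyte Cluster 5 and microglial Cluster 10. Levels are CPM in a mouse's cells of a cluster, given as mean ± SD over mice with at least 10 such cells. Over the 9 members, each ordered across 17 clusters, 1 of 144 pairs of neighbours in the order was separated by more than the SDs of both, namely Igf1r in endothelial cells above pericytes. The orders below are thus descriptions, and neighbours other than that pair do not differ beyond their spread.

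**Figure D1:**
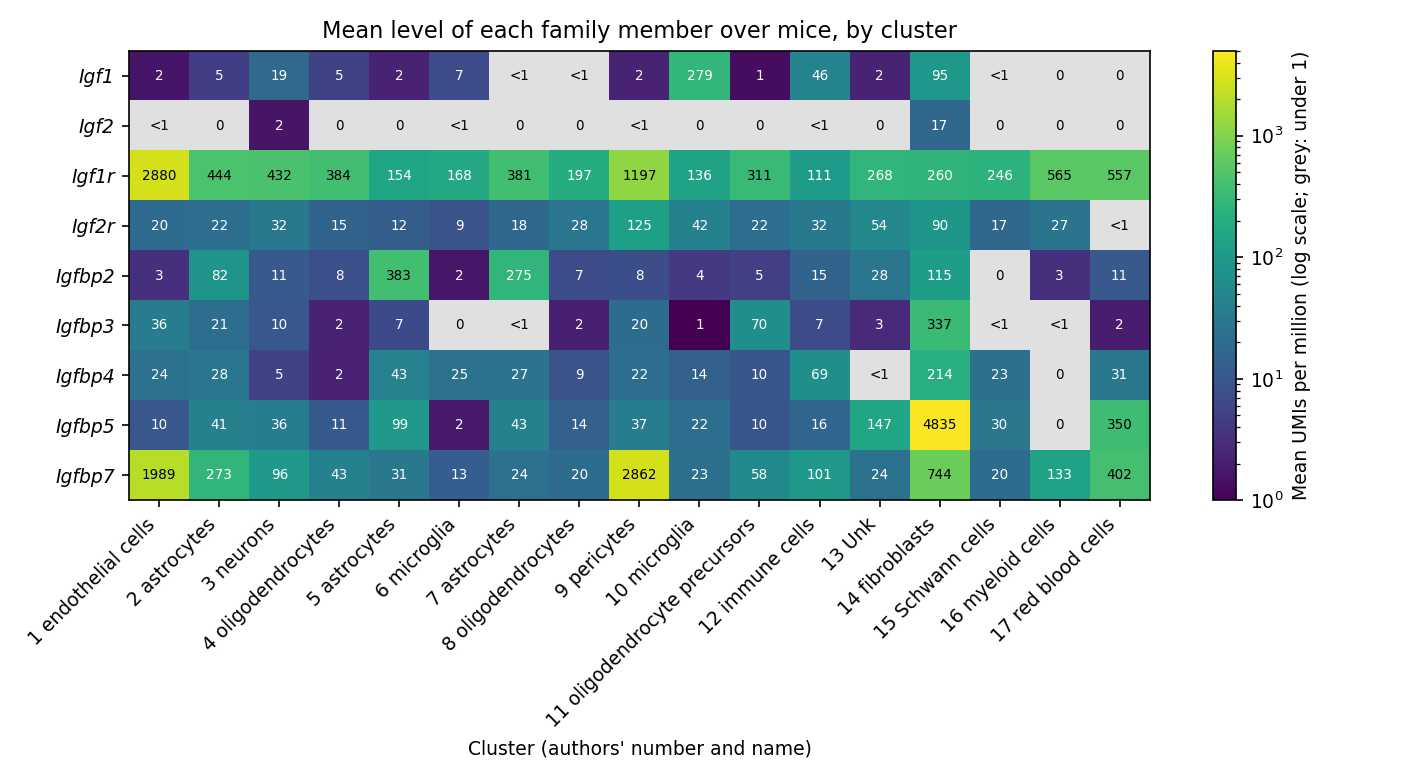
Mean CPM of each of the 9 members (vertical axis) in each of the 17 clusters (horizontal axis) over mice with at least 10 cells, on a log color scale; printed numbers are the means, and grey marks means under 1. Igfbp5 in fibroblasts, Igf1r in endothelial cells and Igfbp7 in pericytes and endothelial cells are the brightest fields, and Igf1 is brightest in Cluster 10.

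Igf1, the ligand of Igf1r, was found mainly in reactive microglia. Its 2291 UMIs came from 596 cells, and 63.9% of them lay in Cluster 10. The mean level there was 279 ± 218 CPM (n = 14), followed by fibroblasts with 95.3 ± 133 (n = 9), the immune cells of Cluster 12 with 45.9 ± 66.7 (n = 10) and neurons with 18.7 ± 14.7 (n = 15). In fibroblasts 7 of 9 mice had Igf1, from 26.3 to 406 CPM, and the highest, cKO 7 d replicate 2, held 404 of the 455 UMIs. In resting microglia (Cluster 6) the level was 7.32 ± 8.52 (n = 14), and the other 12 clusters had means from 0 to 5.38. Within mice, Cluster 10 exceeded Cluster 6 in 12 of 14. These shares and levels pool all times, and most of the UMIs in Cluster 10 came from injured mice. In uninjured mice neurons held 24 Igf1 UMIs, at 25.5 ± 13.1 CPM (n = 4). Cluster 10 then held 2, at 28.3 ± 49.0 (n = 3), and Cluster 6 held 1.

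Igf2, the ligand shared by Igf1r and Igf2r, was almost undetected, with 60 UMIs in all cells. Fibroblasts held 28 of them, at 17.4 ± 27.6 CPM (n = 9), where the highest mouse, WT uninjured replicate 2, had 84.8 from 2 UMIs, and neurons 19, at 1.55 ± 2.24 (n = 15). In 11 clusters no mouse with at least 10 cells had an Igf2 UMI. At this depth no change in Igf2 could be tested in any cell class.

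Injury was followed by a large increase of Igf1 in microglia. For Clusters 6 and 10 summed, uninjured mice had 0, 7.51 and 23.01 Igf1 CPM, and mice at 1 d had 41.6, 51.3 and 9.68. At 7 d the values were 241 and 96.2 in WT and 260 and 151 in cKO mice, and at 14 d they were 184 and 249 in WT and 268 and 204 in cKO mice. All 4 mice at 7 d and all 4 at 14 d lay above all 3 uninjured mice, whereas at 1 d the groups overlapped, with 2 of 3 mice above. The remaining uninjured mouse, cKO replicate 1, had 6 microglia and was not used.

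The test is the edgeR quasi-likelihood test on UMIs summed per mouse, with Benjamini-Hochberg adjustment over all genes and a threshold of 0.05. Igf1 rose at 7 d (log2 fold change 4.44, SE 0.76, adjusted p = 0.0182) and at 14 d (log2 fold change 4.82, SE 0.73, adjusted p = 0.0114). Because the uninjured mice held 3 Igf1 UMIs together, the ratio of pooled levels is loose. It was 25.8 at 7 d, with a 95% counting interval of 8.74 to 126, and 37.6 at 14 d, with an interval of 12.8 to 183, and these intervals cover counting error only. At 1 d the log2 fold change was 1.75 (SE 1.11, edgeR adjusted p = 0.497), which did not pass. Of the 3 mice at 1 d, 2 were shallow. Without the shallow mice no WT mouse was left at 1 d, and cKO 1 d replicate 2 against cKO uninjured replicate 2, 1 mouse against 1, gave -1.14, a change of both mice and baseline.

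Igf1 was the only one of the 6 tested members that passed in microglia. Of 9268 genes tested there, 0.248% passed at 1 d, 0.108% at 7 d and 0.345% at 14 d, so that Igf1 stood among 10 genes at 7 d and among 32 at 14 d, of which 10 and 30 were higher after injury. By edgeR p it was number 8 at 7 d and number 3 at 14 d. DESeq2 also called Igf1, with adjusted p = 0.000771 at 7 d and 0.000199 at 14 d. Of the other tested members only Igf1r had a DESeq2 adjusted p against uninjured mice, and it did not pass. DESeq2 gave none for Igf2r, Igfbp4, Igfbp5 and Igfbp7 there, so it decides nothing about them. Median log2 fold changes of the 6 members were 1.07 at 1 d, 0.33 at 7 d and 1.27 at 14 d, beside 0.02, 0.17 and 0.18 over all tested genes.

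**Figure D2:**
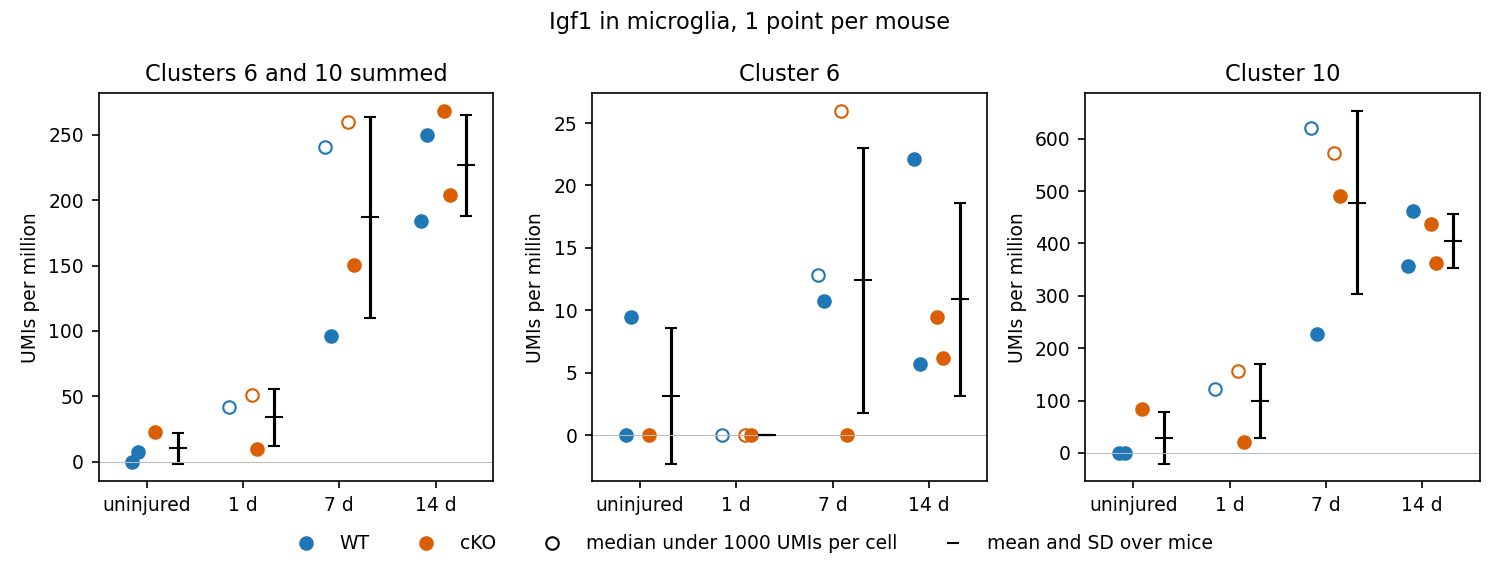
Igf1 CPM (vertical axes) in Clusters 6 and 10 summed, in Cluster 6 and in Cluster 10, by time after injury, with 1 point per mouse colored by genotype, open points for the shallow mice, and mean and SD over mice beside them. All 7 d and 14 d mice lie above the uninjured mice in the summed clusters and in Cluster 10, and Cluster 6 stays at or below 26.0 in every mouse.

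Most Igf1 UMIs of injured microglia lay in Cluster 10. There the mean went from 28.3 ± 49.0 CPM in 3 uninjured mice, which held 2 UMIs together, over 99.7 ± 70.6 at 1 d (n = 3) to 477 ± 175 at 7 d (n = 4) and 404 ± 52.1 at 14 d (n = 4). Fitted alone, Igf1 in Cluster 10 passed edgeR at 7 d (adjusted p = 0.00449) and at 14 d (adjusted p = 0.00882), each with 4 of 4 mice above all uninjured mice. The fitted log2 fold changes, 6.28 and 6.19, are not sizes to rely on, because the uninjured WT mice had 0 Igf1 UMIs in Cluster 10. Of 6788 genes tested in Cluster 10, 0.707% passed at each of these times and 0.147% at 1 d. The ratio of pooled levels within Cluster 10 was 16.5 at 7 d (95% counting interval 4.52 to 137) and 15.99 at 14 d (4.42 to 132). In Cluster 6 the mean was 3.15 ± 5.46 uninjured (n = 3), 0 at 1 d (n = 3), 12.4 ± 10.7 at 7 d and 10.9 ± 7.70 at 14 d (n = 4 each), with 3 of 4 mice at 7 d and 1 of 4 at 14 d above all uninjured mice. Igf1 had too few UMIs there to enter the test, and 0 of its 3 tested members passed edgeR in any comparison, with 1 member at an unadjusted p under 0.05. There 0.0406% of 7394 genes passed at 1 d. DESeq2 was not run for Clusters 6 and 10 on their own, nor were the fits without the shallow mice and with mice grouped by cell names. How firm the calls in Cluster 10 are under these settings was therefore not tested. Whether the clusters differ in their change was not tested.

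The make-up of the microglia differed between mice. Cluster 10 made up 14.1, 41.8 and 42.1% of microglia in the uninjured mice, 28.1, 25.5 and 55.7% at 1 d, 28.9 to 47.5% at 7 d and 44.0 to 62.5% at 14 d. The list of 7 markers of other immune cells, of which 6 had a UMI and Cd3e had none, summed to 338, 834 and 368 CPM in the uninjured mice. At 1 d it summed to 1123, 923 and 290, at 7 d to 4154, 3211, 3566 and 950, and at 14 d to 3221, 1621, 2392 and 2576. Lyz2, a lysozyme gene that reactive microglia also express, held most UMIs of the list, with 15443 in all. Cd74 came next with 798, so these sums are largely those of Lyz2. The mouse with 950 at 7 d, cKO replicate 2, had 151 Igf1 CPM. The part of these differences in the Igf1 values of the summed clusters was not tested.

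The 7 d call is less firm than the 14 d call. Without the 4 shallow mice, Igf1 in microglia gave a log2 fold change of 3.83 at 7 d (edgeR adjusted p = 0.0892) and 4.87 at 14 d (edgeR adjusted p = 0.00335). Grouped by cell names it gave 6.99 at 7 d (adjusted p = 0.105) and 7.48 at 14 d (adjusted p = 0.0182). The baseline rested on WT uninjured replicate 1, whose 257636 microglial UMIs held none of Igf1. Without that mouse the adjusted p was 0.132 at 7 d and 0.0561 at 14 d, and no member passed. The 7 d call was also lost without WT 7 d replicate 1 (adjusted p = 0.0555) and without cKO uninjured replicate 2 (adjusted p = 0.0623), where only WT mice could be compared. Over all settings, the edgeR or DESeq2 adjusted p ran from 2.8e-09 to 0.132 at 7 d and from 2.3e-12 to 0.0561 at 14 d, and the log2 fold change was above 3.6 in each.

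Ryk genotype was not followed by a detectable difference in microglial Igf1. Injured WT mice had 162 ± 91.0 CPM (n = 5) and injured cKO mice 157 ± 108 (n = 6), with overlapping ranges of 41.6 to 249 and 9.68 to 268. The log2 fold change of cKO against WT was -0.16 (SE 0.47, edgeR adjusted p = 1.00).

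Igf1r, the receptor tyrosine kinase for both ligands, was highest in endothelial cells, which held 68.7% of its 48361 UMIs. The level there was 2880 ± 1051 CPM (n = 15), above the 1197 ± 554 of pericytes (n = 15), and this gap exceeded both SDs. Igf1r UMIs were counted in every other cluster, with means from 565 ± 359 in the myeloid cells of Cluster 16 (n = 5) down to 111 ± 94.6 in the immune cells of Cluster 12 (n = 10). The red blood cell cluster had a mean of 557 and a median of 181, and Cluster 2 a mean of 444 and a median of 65.8. Free RNA was not removed, so UMIs from endothelial cells cannot be told apart from expression in these clusters. Neurons had 432 ± 104 (n = 15), and both microglial clusters were near the low end with 168 ± 34.8 and 136 ± 52.3 (n = 14 each).

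Endothelial Igf1r varied widely between mice of the same group and did not pass the test at any time. Uninjured WT mice had 4608 and 1163 CPM, and uninjured cKO mice 3034 and 1293. At 7 d the 4 mice lay between 3071 and 3936 and at 14 d between 2614 and 3739, inside the uninjured range. The mouse lowest at 1 d, cKO replicate 2, had 1063. Low mice in endothelial cells were also low in pericytes, where WT uninjured replicate 2 had 557, cKO uninjured replicate 2 had 565 and cKO 1 d replicate 2 had 381, below the 12 other mice except for cKO 14 d replicate 1 with 548. The pericyte cluster also held the endothelial marker list at 4988 CPM, beside 13708 in Cluster 1, and the part of endothelial RNA in its Igf1r was not tested. Endothelial log2 fold changes were -0.16 (SE 0.44) at 1 d, 0.27 (SE 0.39) at 7 d and 0.18 (SE 0.39) at 14 d.

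Igf2r, the uptake and lysosomal sorting receptor, was highest in pericytes at 125 ± 40.6 CPM (n = 15), followed by fibroblasts at 89.6 ± 84.5 (n = 9) and Cluster 13 at 54.5 ± 28.8 (n = 10). Cluster 10 came next with 42.4 ± 35.7 (n = 14), and the other 13 clusters had means from 0.992 to 31.6. In microglia, Igf2r had 2 UMIs in 3 uninjured mice, against 19 in 3 mice at 1 d, 33 in 4 mice at 7 d and 150 in 4 mice at 14 d. Every injured mouse lay above every uninjured mouse, with 12.4 to 55.4 CPM against 0 to 11.5. The fits did not pass after adjustment, with log2 fold changes of 2.79 (SE 0.84, edgeR adjusted p = 0.161) at 1 d, 1.48 (SE 0.82, edgeR adjusted p = 0.645) at 7 d and 2.30 (SE 0.73, edgeR adjusted p = 0.207) at 14 d.

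Igfbp2, a binding protein with preference for Igf2, was the member of the astrocyte clusters. Its level was 383 ± 306 CPM in Cluster 5 (n = 14) and 275 ± 209 in Cluster 7 (n = 15). In Cluster 5 it was 228 ± 55.8 without the shallow mice (n = 10) and 240 from pooled UMIs. These clusters held 37.8% and 38.4% of its 1866 UMIs. It was among the 10 leading genes of Cluster 5. Fibroblasts followed with 115 ± 238 (n = 9), a mean raised by WT 7 d replicate 1 with 740, then Cluster 2 with 82.2 ± 136 (n = 11), with 487 in 1 mouse and a median of 49.3, and Cluster 13 with 28.3 ± 32.5 (n = 10), and the other 12 clusters had means from 0 to 15.2.

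Clusters 2, 5 and 7 summed gave no member past the edgeR threshold. Of their 7 tested members 0 passed in any comparison, 2 had an unadjusted p under 0.05, and DESeq2 called 0, while 0.0765% of 11769 genes passed edgeR at 1 d. Cluster 5 on its own gave 0 of 5 tested members by edgeR, 0 at an unadjusted p under 0.05 and 0 by DESeq2, with 0.0252% of 7929 genes passing at 1 d. Cluster 7 on its own, a choice made after the data were seen, gave 2 of 6 members by edgeR and 0 by DESeq2.

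In Cluster 7, Igfbp2 fell at 14 d. Uninjured mice had 290, 254, 613 and 240 CPM, and mice at 14 d had 103, 87.5, 270 and 93.2, so that 3 of 4 lay below all uninjured mice. The other, cKO replicate 1, lay within their range. The log2 fold change was -1.32 (SE 0.29, edgeR adjusted p = 0.0268), and 0.188% of 7966 genes passed at 14 d. At 7 d all 4 mice, with 159, 161, 224 and 110, lay below all uninjured mice, at a log2 fold change of -1.25 (SE 0.32) that did not pass (edgeR adjusted p = 0.167, with 0.0377% of genes passing). It did pass without WT uninjured replicate 1 (adjusted p = 0.0354), WT uninjured replicate 2 (0.0482) or cKO uninjured replicate 2 (0.0327), and with the animal-number series as a covariate (0.0254). Over all genes and comparisons, these settings made 167, 52, 29 and 180 calls in Cluster 7, against 34 in the main fit. The animal-number series splits the mice at number 10000. Below it lie the shallow mice and uninjured replicate 1 of both genotypes, and all mice at 14 d lie above. The series is thus tied to time and depth. The 14 d call was lost without the shallow mice (adjusted p = 0.139), with mice grouped by cell names (0.0676), with DESeq2 (0.560), no filter on low counts (0.186), the additive design (0.134) or at least 30 cells per mouse (0.222), and without cKO uninjured replicate 1 (0.222), cKO 14 d replicate 2 (0.610) or WT 14 d replicate 2 (0.0792). Over all settings its adjusted p ran from 0.00096 to 0.610, with log2 fold changes from -1.81 to -1.02. At 1 d, Cluster 7 had 505 ± 303 (n = 3), beside 349 ± 177 uninjured (n = 4). In Cluster 5, Igfbp2 had 202 ± 92.8 uninjured (n = 3), 745 ± 492 at 1 d (n = 3), 381 ± 222 at 7 d and 249 ± 27.6 at 14 d (n = 4 each). There 2 of 3 mice at 1 d, 2 of 4 at 7 d and 0 of 4 at 14 d lay above all uninjured mice, and no time passed the test.

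Igfbp7, a secreted protein of the vessel wall that binds insulin-like growth factors weakly, was highest in pericytes at 2862 ± 946 CPM (n = 15) and in endothelial cells at 1989 ± 1024 (n = 15). Endothelial cells held 64.5% of its 28275 UMIs and pericytes 24.7%. Fibroblasts had 744 ± 346 (n = 9), and Cluster 2 had 273 ± 526 (n = 11), with 1532 in 1 mouse and a median of 27.0. The red blood cell cluster had 402 ± 652 (n = 4), with 1376 in 1 mouse and a median of 116, and the other 12 clusters had means from 12.6 to 133.

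Igfbp7 in vessel cells had its highest values at 1 d, without passing the test. Endothelial cells of uninjured mice had 1627, 1756, 1951 and 1753 CPM, and those of the 3 mice at 1 d had 4304, 2856 and 4281. At 7 d the level was 1531 ± 286 and at 14 d 1297 ± 152 (n = 4 each), with all 4 mice at 14 d below all uninjured mice. Pericytes had 2629 ± 660 uninjured (n = 4) and 4451 ± 233 at 1 d (n = 3), again with 3 of 3 mice above all uninjured mice. The mouse with 4281 at 1 d, cKO replicate 2, was not shallow. These differences did not pass the test, with a log2 fold change of 0.95 (SE 0.31, edgeR adjusted p = 0.922) in endothelial cells and 0.61 (SE 0.44, edgeR adjusted p = 0.977) in pericytes at 1 d. Over all settings the endothelial adjusted p at 1 d ran from 0.278 to 1.00.

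Cluster 7 also showed Igfbp7 at 1 d, at a low level. Of the 4 uninjured mice 3 had no Igfbp7 UMI and cKO replicate 2 had 26.7 CPM, while mice at 1 d had 193, 0 and 61.9, so that 2 of 3 lay above. The log2 fold change of 4.90 (SE 1.10, edgeR adjusted p = 0.0237) passed the threshold, as 0.188% of 7966 genes did, and the 3 mice at 1 d held 24 Igfbp7 UMIs together. It was 1.72 (edgeR adjusted p = 0.924) without the shallow mice and 1.45 (adjusted p = 0.988) without WT 1 d replicate 1. Both leave no WT mouse at 1 d, so that cKO mice were compared with the 2 uninjured cKO mice, which include the only uninjured mouse with Igfbp7. It was 1.51 (adjusted p = 1.00) without cKO 1 d replicate 2. The call was also lost, at log2 fold changes of 4.90, 4.93 and 4.76, without WT uninjured replicate 1 (adjusted p = 0.0868), WT 7 d replicate 1 (0.0553) or cKO 7 d replicate 2 (0.0526). It was lost as well with the additive design (0.143) and with DESeq2 (1.00), over a range from 0.00043 to 1.00. Grouped by cell names it was kept (adjusted p = 0.0259). The 6 endothelial markers, all of which had a UMI and of which Flt1 was the most abundant, summed in Cluster 7 to 258 and 251 CPM in the 1 d mice with Igfbp7 and to 72.1 in the 1 d mouse without. They summed to 34.1, 14.5, 52.2 and 251 in the uninjured mice, where the last is the 1 with Igfbp7. At 14 d they summed to 22.4, 468, 8.52 and 148, while Igfbp7 was 4.47, 39.4, 2.84 and 18.3. The 8 pericyte and smooth muscle markers, led by Pdgfrb, all had a UMI. They summed to 32.2 and 61.9 in the 1 d mice with Igfbp7 and to 72.1 in the 1 d mouse without. In the uninjured mice they summed to 58.0, 36.2, 52.2 and 230, where the last is again the 1 with Igfbp7. Their part in the Igfbp7 values was not tested.

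Igfbp3, the main carrier of ligands in blood, had its highest mean in fibroblasts, 337 ± 535 CPM (n = 9), with 1666 in cKO 1 d replicate 2. Oligodendrocyte precursors followed with 69.5 ± 117 (n = 14), where the same mouse had 449, and endothelial cells with 36.3 ± 43.5 (n = 15). The other 14 clusters had means from 0 to 21.4, and resting microglia had no UMI.

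Endothelial Igfbp3 lay above the uninjured mice at 1 d and mostly below them at 14 d, but neither time passed the main test. Uninjured mice had 56.4, 31.1, 7.68 and 37.3 CPM, and the mice at 1 d had 62.5, 84.3 and 165, all above them. At 7 d the values were 41.7, 5.48, 19.8 and 13.2, and at 14 d they were 3.41, 2.46, 11.7 and 2.63, of which 3 of 4 lay below all uninjured mice. At 1 d the log2 fold change was 1.10 (SE 0.58, edgeR adjusted p = 0.922), with 0.646 as the smallest adjusted p of any setting. At 7 d it was -1.62 (SE 0.58, edgeR adjusted p = 0.546), and it passed only with no filter on low counts (-1.56, adjusted p = 0.0333). The log2 fold change at 14 d was -3.30 (SE 0.61), the smallest p of any gene tested in endothelial cells at that time, yet it did not pass in edgeR (adjusted p = 0.632). It passed in DESeq2 (log2 fold change -3.21, adjusted p = 0.0325), with the animal-number series as a covariate in edgeR (adjusted p = 0.00356) and with no filter on low counts (adjusted p = 3.5e-10). The last 2 settings made 303 and 403 endothelial calls over all genes and comparisons, against 1 in the main fit. Without the shallow mice its edgeR adjusted p was 0.533, and over all settings it ran from 3.5e-10 to 1.00 with a negative log2 fold change in each.

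Igfbp4, a binding protein that the protease Pappa cleaves, was highest in fibroblasts at 214 ± 130 CPM (n = 9), then in the immune cells of Cluster 12 at 68.5 ± 57.9 (n = 10) and in Cluster 5 at 43.1 ± 23.4 (n = 14). The other 14 clusters had means from 0 to 30.7. In endothelial cells it had 3.89, 6.23, 0 and 13.6 CPM in uninjured mice, 153, 54.5 and 35.2 at 1 d, and 11.9, 5.48, 0 and 36.1 at 7 d. All 3 mice at 1 d lay above the uninjured mice, the shallow WT mouse highest. The log2 fold change was 3.28 (SE 0.73, edgeR adjusted p = 0.475), and it passed only with no filter on low counts (adjusted p = 5.0e-07, the low end of a range up to 1.00, in the setting with 403 calls). Without the shallow mice it was 1.64 (edgeR adjusted p = 0.983), with cKO 1 d replicate 2 compared with the 2 uninjured cKO mice alone. At 14 d Igfbp4 was at 8.65 ± 7.33 (n = 4), beside 5.92 ± 5.71 uninjured (n = 4).

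By edgeR, 0 of the 6 members tested in endothelial cells passed, beside 3 members at an unadjusted p under 0.05 and 1 called by DESeq2. Few genes of any kind passed there, namely 0.00910% of 10985 at 1 d and none at 7 d, at 14 d or between genotypes. Median log2 fold changes of the 6 members were 0.40 at 1 d, -0.10 at 7 d and -0.37 at 14 d, beside -0.09, -0.04 and -0.01 over all genes. In pericytes 0 of 6 members passed edgeR, with 1 at an unadjusted p under 0.05 and 0 by DESeq2, and none of 6876 genes passed.

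**Figure D3:**
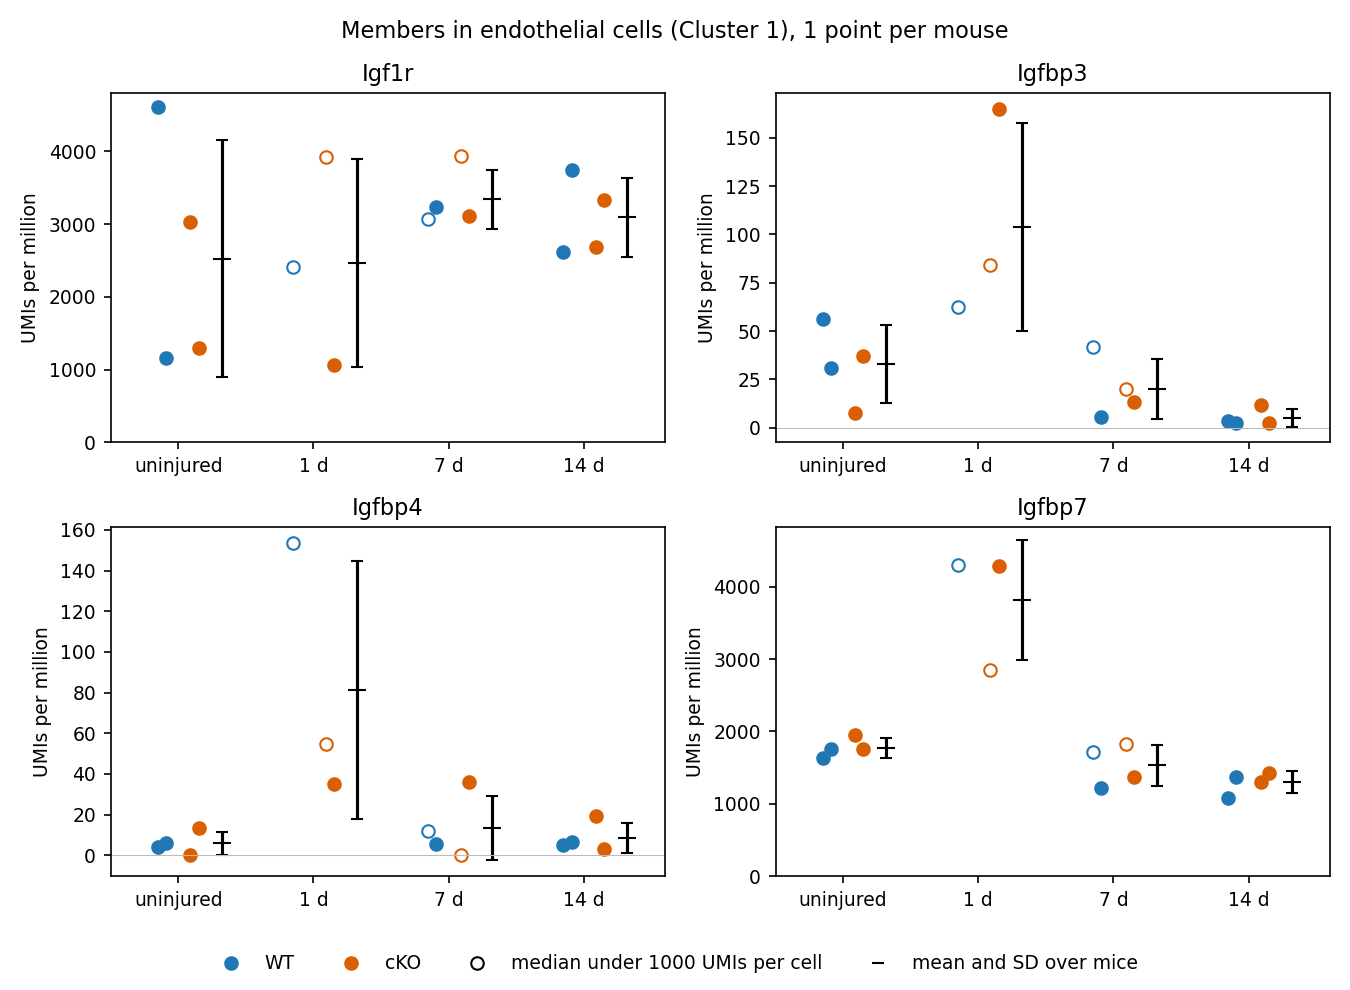
CPM (vertical axes) of Igf1r, Igfbp3, Igfbp4 and Igfbp7 in endothelial cells by time after injury, with 1 point per mouse colored by genotype, open points for the shallow mice, and mean and SD over mice beside them. For Igfbp3, Igfbp4 and Igfbp7 the 3 mice at 1 d lie above the 4 uninjured mice, and Igf1r overlaps between the times.

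Igfbp5, a binding protein that attaches to extracellular matrix, was largely a fibroblast gene, with 91.6% of its 18244 UMIs in Cluster 14 at 4835 ± 4026 CPM (n = 9). The fibroblast level was 8745 from pooled UMIs and 8071 ± 4769 in the 3 mice with at least 30 cells. Of the 16709 fibroblast UMIs of Igfbp5, 12377 came from cKO 7 d replicate 2. The red blood cell cluster had 350 ± 684 (n = 4), from 15 UMIs, with 1376 in 1 mouse and a median of 11.4. Cluster 13 had 147 ± 31.3 (n = 10) and Cluster 5 had 99.5 ± 92.4 (n = 14), while the other 13 clusters had means from 0 to 42.7. Fibroblasts of 1 uninjured mouse had 5469 CPM. At 1 d the mice had 918, 0 and 1875, at 7 d 8787 and 12441, and at 14 d 2984, 6925 and 4116. The mice at 1 d were thus the lowest and those at 7 d the highest, with no overlap between these times. No change over time is drawn from this, because the fit compared 1 WT mouse with 1 WT mouse at each time, and 1 d was not compared with 7 d.

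Fibroblasts gave 0 of 8 tested members by edgeR, 4 at an unadjusted p under 0.05 and 0 by DESeq2. The DESeq2 count is limited, because at 1 d only Igfbp5 and Igfbp7 had an adjusted p. At 14 d DESeq2 gave none for Igf1, Igf2r, Igfbp2 and Igfbp4. There were 9 mice with at least 10 fibroblasts, and the only uninjured one was WT, so each time after injury was compared in WT as 1 mouse against 1. In these fits 0.0243% of 4113 genes passed at 7 d and 0.316% at 14 d. For Igfbp4 after injury, cKO mice had 259 ± 143 CPM (n = 5) and WT mice 167 ± 120 (n = 3), at a log2 fold change of 1.43 (SE 0.66, edgeR adjusted p = 0.632). Without the shallow mice it was 2.65 (edgeR adjusted p = 0.00538), but that fit compared 2 cKO mice at 14 d with 1 WT mouse, WT 14 d replicate 1, and made 500 calls over all genes and comparisons against 14 in the main fit, so it is not taken as a genotype difference. Igfbp2 passed for the same comparison only without WT 1 d replicate 1 (log2 fold change -3.21, adjusted p = 0.0104), where 7 d and 14 d each had 1 WT mouse. Igfbp3 passed at 1 d only with mice grouped by cell names (10.70, adjusted p = 0.0245), as 2 mice against 1 with 0 UMIs.

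**Figure D4:**
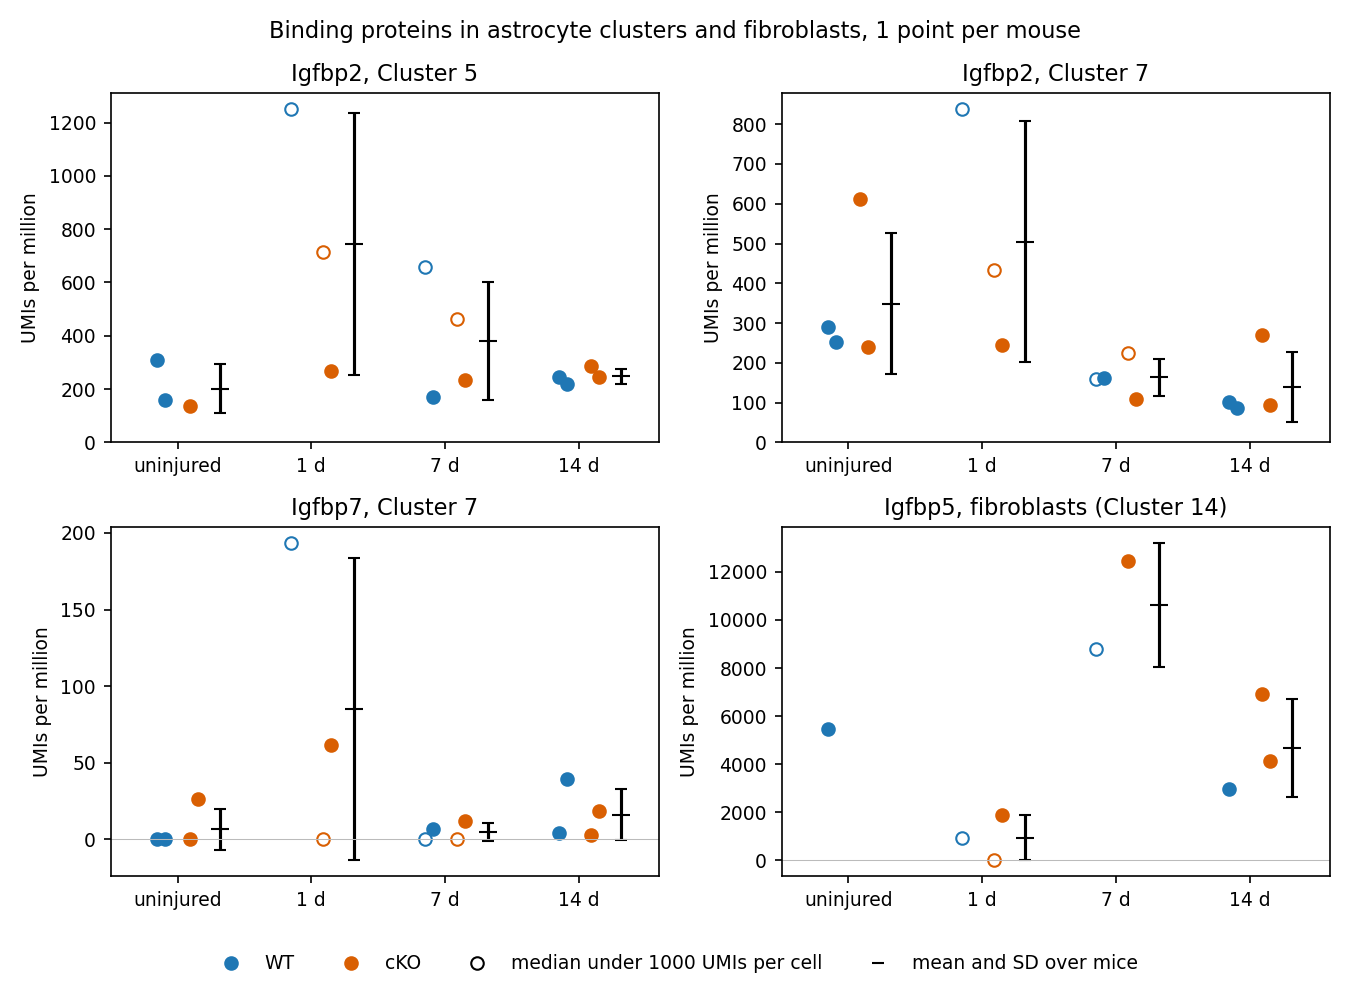
CPM (vertical axes) of Igfbp2 in Clusters 5 and 7, Igfbp7 in Cluster 7 and Igfbp5 in fibroblasts by time after injury, with 1 point per mouse colored by genotype, open points for the shallow mice, and mean and SD over mice beside them. Igfbp2 in Cluster 7 has 3 of 4 mice at 14 d below the uninjured mice, and fibroblasts have 1 uninjured mouse.

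Neurons and oligodendrocytes had no member past the test. In neurons edgeR gave 0 of 5 tested members, 1 at an unadjusted p under 0.05 and 0 by DESeq2, although 0.00977% of 10238 genes passed at 7 d and 0.791% at 14 d. That member was Igf1, with 25.5 ± 13.1 CPM uninjured, 4.64 ± 7.70 at 7 d and 30.0 ± 12.5 at 14 d (n = 4 each), at a log2 fold change of -2.04 at 7 d (SE 0.78, edgeR adjusted p = 0.451). Over all tested genes the median log2 fold change in neurons was -2.98 at 1 d and 2.01 for cKO against WT. WT 1 d replicate 1 had 18 neurons with 7570 UMIs. The lack of calls in these comparisons therefore says little about the members. In oligodendrocytes, Clusters 4 and 8 summed, edgeR gave 0 of 4 tested members, 0 at an unadjusted p under 0.05 and 0 by DESeq2, and none of 8624 genes passed.

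Between genotypes after injury, none of 42 tests of members in the 7 cell classes passed edgeR, 3 had an unadjusted p under 0.05, and DESeq2 called 0. Background calls were as rare, with none of the genes tested in any of the 7 classes or in Clusters 5, 6 and 10 passing, and 0.0126% of genes in Cluster 7. Whether the response to injury differed between genotypes was tested in 6 of the 7 classes, as no uninjured cKO mouse had 10 fibroblasts, and 0 of 34 tests of members passed edgeR, with 1 at an unadjusted p under 0.05 and 0 by DESeq2. With Clusters 5, 6, 7 and 10 added, 0 of 53 passed edgeR and 3 had an unadjusted p under 0.05. These included Igfbp7 in Cluster 7 (log2 fold change -5.97, edgeR adjusted p = 0.845) and Igf1 in Cluster 10 (-7.51, edgeR adjusted p = 0.855). The share of all genes that passed this test of the response is not given here. The counts of 0 are therefore not read as particular to the members. Igfbp2, the binding protein of astrocyte Clusters 5 and 7, had 509 ± 458 CPM in injured WT mice (n = 5) and 368 ± 189 in injured cKO mice (n = 6) in Cluster 5. In Cluster 7 it had 270 ± 319 and 229 ± 123. Both pairs differed by less than the SD between mice.

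The wider pathway, 36 genes that act beside the 9 members, gave no call. In each of the 7 classes 0 of the 15 to 22 genes tested passed edgeR in either direction, while 3 to 7 genes per class had an unadjusted p under 0.05. DESeq2 called 0 where it gave an adjusted p. Of all tested genes at most 0.791% passed edgeR in any class and comparison (neurons at 14 d). The lack of calls is therefore not read as particular to these pathway genes. Nearest to the threshold was Pik3ca, a catalytic subunit of phosphoinositide 3-kinase, in microglia at 1 d (log2 fold change -2.03, SE 0.68, edgeR adjusted p = 0.206). Insr, the insulin receptor, had its highest level in endothelial cells, as Igf1r did, at 376 ± 97.4 CPM (n = 15). Igfbp6, a binding protein with preference for Igf2, was highest in fibroblasts at 3236 ± 1826 (n = 9), and so were Lrp1 at 692 ± 303 and Pappa at 40.2 ± 61.2. Of the 36 genes, 26 reached a mean of 20 CPM in some cluster, and 5 of these were highest in fibroblasts, 4 in endothelial cells and 4 in pericytes.

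Genes whose levels ran most like those of a member over the 17 clusters were highest in the same cluster as the member for 7 of the 9. Igfbp7, itself highest in pericytes, was closest to genes highest in endothelial cells, and 2 of the 3 genes closest to Igfbp2 were highest in Cluster 7 and not in Cluster 5. Likeness is Pearson's r of log2 levels among 14506 genes that reached 20 CPM, a description over clusters from the same mice. Igf1 ran closest to Cxcl16 (r = 0.88), Gm7618 (0.87) and Rab7b (0.82), all highest in Cluster 10. For Igf1r the closest were Emcn (0.91), Egfl7 (0.91) and Prom1 (0.90), and for Igfbp7 they were Abcb1a (0.98), Ly6a (0.96) and Lsr (0.96). Igf2r was closest to Slc16a12 (0.82), Col4a4 (0.81) and Xpc (0.79), highest in pericytes. Igfbp2 was closest to Prodh (0.92), Fzd10 (0.92) and the astrocyte connexin gene Gjb6 (0.91). Fibroblast genes were closest to Igfbp3 (Tmem158 0.945, Evpl 0.93, Arhgap20 0.91), to Igfbp4 (Slc39a13 0.84, Trp53i11 0.82, Timp1 0.79) and to Igfbp5 (Cyp1b1 0.92, Scara5 0.92, Islr 0.89). Igf2 reached 17.4 CPM at most, and the genes closest to it (Srpx2, Foxc2 and Twist2, each 0.99) were highest in fibroblasts as well.

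The members are spread over 6 chromosomes, with 1 close pair. On mm10 in GENCODE vM21, Igf1 lies at chr10:87858265-87937042 on the plus strand, and Igf1r at chr7:67952827-68233668 on the plus strand. Igfbp2 at chr1:72824503-72852474 and Igfbp5 at chr1:72857932-72874884 face each other tail to tail, 5457 bases apart with no coding gene between, yet Igfbp2 was highest in Cluster 5 and Igfbp5 in fibroblasts. Igfbp3 at chr11:7206086-7213923 lies 3539 bases from Igfbp1, which had 3 UMIs in all cells. Igfbp4 lies at chr11:99041244-99054392, Igfbp7 at chr5:77349240-77408041 and Igf2r at chr17:12682406-12769664. Igf2 at chr7:142650766-142666816 lies 11839 bases from Ins2 and 72622 from H19. On its own strand it overlaps 2 other listed genes, which had no UMI, and no other member overlaps a listed gene on its strand.

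RefSeq promoters on GRCm38.p6 were matched by symbol for all 9 members, 13 promoters in all. In the 250 bases before the start, those of Igf1r and Igfbp7 had the most G and C of the 13, with 77.6% and 74.0% beside a median of 52.4% over 32851 promoters. They held 42 and 26 CpG pairs, against a median of 6. Igfbp3, with 73.2% G and C, held 32 CpG pairs, and Igf2r, with 69.2%, held 27. The letters GGGCGG, searched on both strands, occurred 2 times before Igf1r and 4 times before Igfbp7, and in 32.7% of all promoters. They also occurred 3 times each before Igf2r and a promoter of Igfbp2, and 2 times and 1 time before promoters of Igf2. Igf1, Igfbp3, Igfbp4 and Igfbp5 had none. TATAAA, found in 12.4% of all promoters, was before neither Igf1r nor Igfbp7, and among the members only that of Igfbp4 held it. By contrast the Igf1 window had 52.8% G and C, 5 CpG pairs and neither motif. It lies inside the span of Igf1 and within annotated exon sequence, for which the gene was not recorded. Both are printed 5′ to 3′, with GGGCGG or its reverse complement in capitals, Igf1r from chr7:67952007-67952256 on the plus strand and Igfbp7 from chr5:77408046-77408295 on the minus strand.
Igf1r: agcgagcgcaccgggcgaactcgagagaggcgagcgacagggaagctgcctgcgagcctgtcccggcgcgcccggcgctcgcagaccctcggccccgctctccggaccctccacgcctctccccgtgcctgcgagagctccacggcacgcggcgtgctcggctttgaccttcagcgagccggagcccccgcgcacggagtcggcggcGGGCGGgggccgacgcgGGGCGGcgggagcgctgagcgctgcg
Igfbp7: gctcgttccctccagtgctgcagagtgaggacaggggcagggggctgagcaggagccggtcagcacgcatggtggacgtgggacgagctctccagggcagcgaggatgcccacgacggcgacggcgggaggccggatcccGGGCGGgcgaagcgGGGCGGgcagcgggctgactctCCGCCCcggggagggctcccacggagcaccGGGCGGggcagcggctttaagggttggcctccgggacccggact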

How the data were processed

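The authors deposited one matrix of UMI counts per gene and cell with a cell table, and these deposited counts were used as they are. The submitters' processing notes name Cell Ranger, R 4.1.2 and Seurat, and the builds GRCm38 and mm10. Cluster numbers and names are the authors'. Cluster 1 holds 1155 cells that the authors' first pass had placed in Cluster 2, beside 3046 from the first pass itself. In the moved cells Igf1r was at 1758 ± 1901 CPM and Igfbp7 at 1014 ± 1289. In the first-pass cells they were at 2931 ± 1004 and 2116 ± 1153. The first-pass cells were higher in 10 of 14 mice for Igf1r and in 11 for Igfbp7. No doublet caller was run here, and free RNA was not removed. The members and lists were chosen with earlier results of these data known. All 9 members are named in the order of ligands, receptors and binding proteins. Of the 36 pathway genes, those past the threshold were to be named, and with none past it those named were picked after their values were seen. For each member the 3 genes most like it across clusters are named, after adding 10 to each level before the log. Markers of each cell type came from a fixed list, and the 10 leading genes of a cluster had UMIs in at least 10% of its cells.

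UMIs were summed per mouse over cells of a class, for mice with at least 10 such cells, and fitted with edgeR 4.0.16 in R 4.3.3 (TMM factors, filterByExpr, means of 8 groups, quasi-likelihood test, two-sided). Benjamini-Hochberg adjustment ran over all tested genes within each comparison, at 0.05. Comparisons were 1, 7 and 14 d each against uninjured, as the mean over the genotypes present at both times (WT alone in fibroblasts, 1 mouse against 1), and cKO against WT after injury. DESeq2 1.42.0 served as the other tool. In simulated data, 8-fold changes were added to genes among the more abundant tested ones, and all genes shared 1 dispersion. There edgeR recovered most added changes, except in fibroblasts and in neurons at 1 d. Recovery of smaller changes, or of changes in genes with few UMIs, was not tested. For each of the 16 mice the authors' batch matches its replicate number, which therefore pairs mice across conditions. Differences between replicates 1 and 2 of a condition, correlated over genes between conditions, had a median correlation per class of 0.018 to 0.25, and of -0.027 in fibroblasts with 1 such pair.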

Additional observations from a re-analysis of the deposited data

Results flagged for a closer look

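In 61 groups of 4 mice for which a level by time was computed, 9 held a mouse whose gap to the nearest other mouse took up nearly the whole range of the group, and chance gives about 1 in 20. That rate does not apply where the other mice are at 0, because the gap is then the whole range by construction. Igfbp2 in Cluster 7 stood at 613 CPM (counts-per-million) in cKO uninjured replicate 1, from 20 cells, beside 240 to 290 in the other 3 uninjured mice. At 14 d it stood at 270 in cKO 14 d replicate 1, from 44 cells, beside 87.5 to 103. Endothelial Igfbp3 at 14 d stood at 11.7 in cKO 14 d replicate 1, beside 2.46 to 3.41. Igfbp5 in pericytes stood at 125 in WT uninjured replicate 2, from 11 UMIs, beside 0 to 7.87. Igfbp7 in Cluster 7 stood at 26.7 in cKO uninjured replicate 2, from 5 UMIs, beside 0 in the others. Igf1 in neurons at 7 d stood at 16.1 in cKO 7 d replicate 2, from 14 UMIs, beside 0 to 2.49. The same mouse stood at 3.01 for Igf1 in endothelial cells and at 4.51 in oligodendrocytes, from 5 and 4 UMIs, beside 0 in the others. Igf1 in Clusters 2, 5 and 7 summed stood at 22.0 in cKO uninjured replicate 1, from 2 UMIs, beside 0 to 1.35.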

How the results depend on the processing

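The number of members past the threshold kept at 0 under all alternatives in pericytes, oligodendrocytes, neurons and Cluster 5. In endothelial cells it was 1 with DESeq2, 1 with the animal-number series as a covariate and 2 with no filter on low counts. In fibroblasts it was 1 with mice grouped by cell names, 1 without the shallow mice, and 0 to 1 when each mouse was left out. In Clusters 2, 5 and 7 summed it was 1 with the animal-number series, which made 407 calls over all genes against 9 in the main fit, and 2 with Cluster 7 alone. In microglia it was 0 with Cluster 6 alone and 0 to 1 when each mouse was left out. In Cluster 7, chosen after seeing the data as were its alternatives, it was 0 with DESeq2, 0 with the additive design, 0 without the shallow mice, 1 with at least 30 cells, 1 with mice grouped by cell names, 1 with no filter, and 1 to 2 when each mouse was left out. With the animal-number series it was 3, among 180 calls over all genes against 34 in the main fit. The cause was not tested. Igf1 in microglia at 1 d had a log2 fold change of -1.14 without the shallow mice and 4.86 with mice grouped by cell names, and ran from -0.20 to 3.72 when each mouse was left out. The -1.14 and -0.20 come from fits with no WT mouse at 1 d, so cKO mice were compared with 1 uninjured cKO mouse and the baseline changed too. For cKO against WT after injury it turned to 0.077 with the animal-number series and to 0.27 without the shallow mice. It ran from -0.48 to 0.25 when each mouse was left out. The additive design gave 0.19, but its genotype term covers the uninjured mice too and is not the same comparison.

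With a replicate block, Igf1 in microglia had an adjusted p of 0.00897 at 7 d and 0.00256 at 14 d, and the replicate block changed no other call of a member. Leaving out cells with shared barcodes, an alternative added after seeing the data, gave 0.0151 and 0.00824. All 36 alternatives to the levels stayed within 1 SD, but the SDs are wide: Igfbp2 in Cluster 5 was 228 CPM without the shallow mice, and in fibroblasts Igfbp5 was 8745 from pooled UMIs and Igfbp3 was 205 as a mean over cells. Fibroblasts with at least 30 cells could not be fitted. Depth limits uninjured microglia, where 3 Igf1 UMIs in 477668 set the baseline, and uninjured fibroblasts, with 1 mouse of 23586 UMIs. Where 1 mouse per group remained, it was assumed to vary like the other groups.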
